A study of Mus musculus with 6 samples.

Results

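Predicted genes, noncoding genes and pseudogenes made up 65 of the 398 genes in the table of expression differences between QKI-cKO and QKI-ctrl muscle stem cells (MuSCs). They were chosen by the form of their symbol alone, namely Gm followed by a number, the ending Rik, the ending -ps with or without a number, or 1 to 2 capital letters followed by a clone number. QKI-cKO mice were QKI2lox/2lox;Pax7CreERT2/+, so that 4-hydroxytamoxifen removed exon 2 of *Qk* in cells that express *Pax7*, and QKI-ctrl mice were QKI2lox/2lox;Pax7+/+ littermates. Mice of both groups were 6 to 8 wk old, were on a C57BL/6 background, and received 4-hydroxytamoxifen daily for 5 d. MuSCs were sorted from abdominal and diaphragm muscle and kept for 72 h in growth medium, and polyadenylated RNA of 3 libraries per group was sequenced with paired reads of 100 bases. Effects of the Cre allele and of QKI loss cannot be told apart, since every QKI-cKO mouse had both and no QKI-ctrl mouse had either. The Cre is driven by the *Pax7* promoter.

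The table gives 1 pooled level per gene and group in FPKM, a count of sequenced fragments divided by transcript length and library size, and lists only genes that the authors marked as significant. It holds no value of a single library. No SD, interval or test could be computed, the depth is unknown, and each difference below is a difference between pooled values with no replicate check. The columns carry only the names q1 and q2, and q1 was taken as QKI-ctrl and q2 as QKI-cKO because the study names *Myl1*, *Myl4*, *Myh3*, *Sspn* and *Mybph* as lower in QKI-cKO. A ratio is the QKI-cKO level over the QKI-ctrl level, and a value below 1 is a lower level in QKI-cKO. In whole cultures, fewer cells that express a gene and less RNA per cell cannot be told apart. *Qk* itself had 128 FPKM in QKI-ctrl against 262 FPKM in QKI-cKO, but this level counts exons outside the deleted one and does not check the deletion. Of the 8 MuSC markers examined, *Itga7* and *Vcam1* were in the table, both lower in QKI-cKO. Of 4 leukocyte markers *Laptm5* was listed, with 12.9 and 19.9 FPKM, and of 2 endothelial and 3 fibro-adipogenic markers 0 were listed. The sort took ITGA7+ cells and gated out cells with CD45, CD11b, CD31 or Sca1, which mark leukocytes, endothelial cells and fibro-adipogenic cells. A marker outside the table has no value here, and the part of these cell types in the levels below was not tested.

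QKI is an RNA-binding protein of the STAR family that controls splicing, stability and transport of its target RNAs. Pseudogenes are copies of genes that have lost the ability to make the original protein. A processed pseudogene arose when a messenger RNA was copied back into the genome and has no introns, whereas a nuclear copy of mitochondrial DNA is a fragment of the mitochondrial genome inserted into a chromosome. Long noncoding RNAs are transcripts without a recognised protein, some of which are the precursors of microRNAs. The symbols that define the group are provisional, and the GENCODE vM21 annotation of GRCm38 divides its members into 35 pseudogenes, 23 long noncoding genes, 6 protein-coding genes and 1 ribosomal RNA gene.

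Levels in QKI-cKO were higher for 25 of the 65 genes and lower for 40. In the whole table, the share of higher genes was 57.3% and that of lower genes 42.7%, so that the share of lower genes was larger here (61.5%). The direction was not the same in each class, a difference in counts that could not be tested without replicates. Only 3 of the 35 pseudogenes were higher and 32 were lower, with a median ratio of 0.567. Among the long noncoding genes 18 were higher and 5 were lower, with a median ratio of 1.66. The protein-coding genes were split 4 to 2, and the single ribosomal RNA gene was lower. The median ratio was 1.30 over the other 333 genes of the table.

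**Figure D1:**
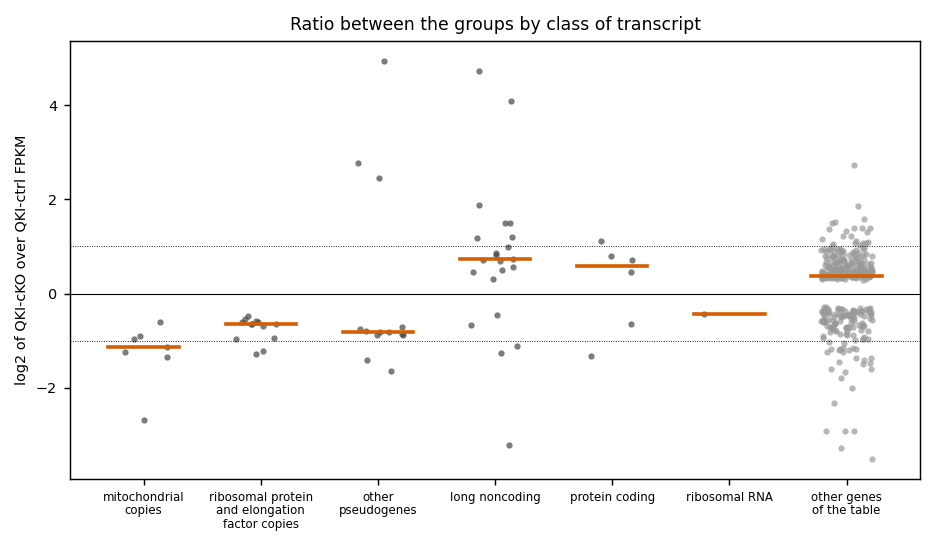
Log2 of the ratio of QKI-cKO to QKI-ctrl FPKM for each gene with a level above 0 in both groups, by class, with the other genes of the table at the right. Orange lines are medians, dotted lines mark a 2-fold difference, and no error can be drawn because each group has 1 pooled value. All points of the mitochondrial copies and of the ribosomal protein and elongation factor copies lie below 0, 3 other pseudogenes lie far above it, and most long noncoding genes lie above it.

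A difference of at least 2-fold was found in 26 of the 65 genes (40%), against 19.3% of the whole table. In the higher direction these were 12 genes, against a table share of 8.54%, and in the lower direction 14, against 10.8%. These counts include 3 members listed at 0 in a group, which have a direction but no ratio, so a ratio past 2-fold was measured in 23 members, 11 higher and 12 lower. The levels were also lower than elsewhere in the table. Below 1 FPKM in both groups were 21 members (32.3%), compared with 14.1% of all 398 genes, and ratios of such genes rest on little signal. Among the 44 members that reached 1 FPKM in at least 1 group, 9 differed by 2-fold or more (20.5%), against 11.1% of the 342 genes of the table at the same limit. The 4 largest ratios of the table all belonged to members, *Gm4864*, *1700108F19Rik*, *Gm47015* and *Gm5898*, and each started below 1 FPKM in QKI-ctrl.

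**Figure D2:**
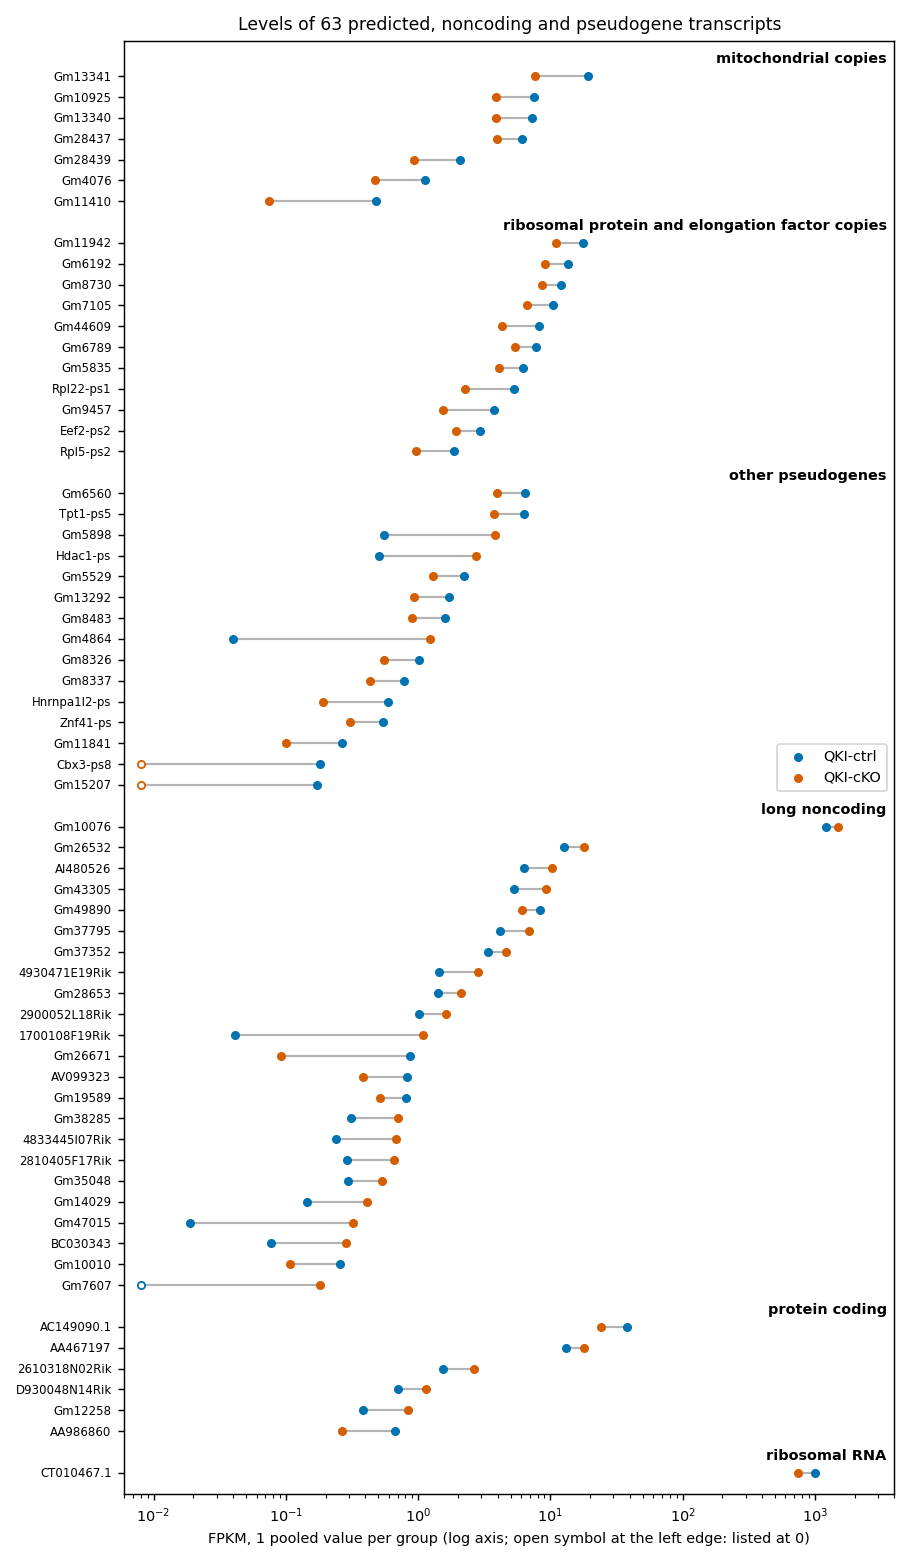
FPKM of 63 of the 65 genes on a log axis, 1 pooled value per group, sorted by level within each class; open symbols at the left edge are genes listed at 0. QKI-cKO points lie left of QKI-ctrl points in nearly all pseudogene rows and mostly right of them in the long noncoding rows, and 2 genes, *Gm10076* and *CT010467.1*, stand above 1000 FPKM.

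Each of the 35 pseudogenes could be matched to a parent gene by its sequence, the annotated transcript outside its own locus with the best match of at least 80% identity over at least 50% of the pseudogene. Identity ranged from 88.3% to 100% with a median of 96.8%. The closeness of a copy to its parent bears on what its level means, because a read from a stretch that both share cannot be assigned by its sequence. Of all possible stretches of 100 bases in a pseudogene, the length of 1 read, a median of 6.64% also occurred unaltered in another annotated transcript, 28 of the 35 had at least 1 such stretch, and 4 were shared over their whole length. In 19 of the 23 long noncoding genes there was no such stretch. How reads with several matches were counted is not given in the sources used here, and their part in the pseudogene levels was not tested.

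Pairs of stretches of 60 bases show where some copies differ most from their parents, with the bases that differ within a pair in capitals. For each pair the ungapped stretch with the most differing bases was taken, so the stretches are less alike than the copies as a whole. The first pairs are the 3 pseudogenes that were higher in QKI-cKO, beside their parents *Hdac1* and *Thrap3*. The next pairs are a nuclear copy and its mitochondrial parent, a copy of *Rpl22* from the group of lower ribosomal protein copies, and the most abundant member beside *Rpl41*. Sequences are those of the GENCODE vM21 transcripts, 5′ to 3′ on the transcript's strand.
Gm4864 (chr12:77623803-77623862, minus strand): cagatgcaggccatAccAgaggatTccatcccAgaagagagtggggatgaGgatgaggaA
Hdac1: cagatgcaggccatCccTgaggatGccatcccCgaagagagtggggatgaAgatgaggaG
Hdac1-ps (chr17:78492004-78492063, plus strand): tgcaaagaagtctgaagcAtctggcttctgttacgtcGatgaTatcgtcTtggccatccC
Hdac1: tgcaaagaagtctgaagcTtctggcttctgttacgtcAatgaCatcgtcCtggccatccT
Gm5898 (chr7:63544322-63544381, plus strand): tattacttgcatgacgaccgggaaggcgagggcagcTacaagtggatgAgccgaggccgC
Thrap3: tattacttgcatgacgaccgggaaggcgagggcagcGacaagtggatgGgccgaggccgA
Gm13341 (chr2:22587471-22587530, minus strand): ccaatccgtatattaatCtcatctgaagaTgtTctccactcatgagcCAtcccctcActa
mt-Co2: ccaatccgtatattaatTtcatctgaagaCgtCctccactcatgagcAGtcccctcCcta
Gm9457: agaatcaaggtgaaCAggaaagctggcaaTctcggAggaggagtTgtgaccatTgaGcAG
Rpl22: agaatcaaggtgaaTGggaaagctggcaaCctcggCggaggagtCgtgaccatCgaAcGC
Gm10076 (chr14:105681895-105681954, plus strand): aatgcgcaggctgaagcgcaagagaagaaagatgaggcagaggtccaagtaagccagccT
Rpl41: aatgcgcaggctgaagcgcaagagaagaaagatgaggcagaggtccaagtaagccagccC

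The 3 pseudogenes that were higher in QKI-cKO had ratios from 5.45 to 30.9. *Gm4864* had 0.0397 FPKM in QKI-ctrl against 1.23 FPKM in QKI-cKO, a ratio of 30.9 and the largest of the table. It lies on chromosome 12 and is a copy of *Hdac1*, which encodes a histone deacetylase, at 94.3% identity. *Hdac1-ps*, on chromosome 17, is a closer copy of the same gene at 99.4% identity, and had 0.504 FPKM in QKI-ctrl against 2.75 FPKM in QKI-cKO, a ratio of 5.45. The copies share 94.3% of their bases with each other. Of the 100-base stretches of *Gm4864*, 1.84% occurred unaltered in another annotated transcript, compared with 69.0% of those of *Hdac1-ps*. From which gene the reads of either copy came was not tested. *Gm5898* is a copy of *Thrap3*, which encodes a protein of RNA processing and transcription, at 98.97% identity. It lies on the same strand within an intron of *Otud7a* on chromosome 7 and had 0.557 FPKM in QKI-ctrl against 3.79 FPKM in QKI-cKO, a ratio of 6.80. Neither *Hdac1* nor *Thrap3* was in the table.

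The parents of these 3 pseudogenes are both on chromosome 4, where the Cre allele sits at *Pax7*. *Hdac1* lies 10.3 Mb and *Thrap3* 13.6 Mb from *Pax7*. This was noticed after the values were seen and was therefore counted for all parents. The 36 members with a parent, which are the pseudogenes and *Gm10076*, had 23 different nuclear parents, of which 7 (30.4%) were on chromosome 4, compared with 6.02% of the 22028 annotated protein-coding genes. All 7 were within 30 Mb of *Pax7*, as are 3.26% of annotated protein-coding genes. Beside *Hdac1* and *Thrap3* they were *Zfp991* at 7.37 Mb, *Eno1* at 10.5 Mb, *Rpl22* at 12.5 Mb and *Pabpc4* at 16.5 Mb, and 1 that is not described. Within 10 Mb, 15 Mb and 20 Mb there were 1, 5 and 6 of them. The shares of parents and of annotated genes are of unlike sets, since every parent was chosen for having a copy among the members. *Hdac1* and *Thrap3*, which prompted the count, are still in it. The 10 pseudogenes of the 7 parents did not share a direction, with 3 higher and 7 lower. Of the 65 members, 8 lie on chromosome 4 themselves. The share of all genes of the table on this chromosome is not given here, so this count has no background. The members' own distances from *Pax7* were not computed. *Eef2-ps2*, *Znf41-ps* and *2810405F17Rik* (0.290 FPKM in QKI-ctrl against 0.663 FPKM in QKI-cKO) lie between *Hdac1* and *Zfp991*, the nearest of these parents on either side of *Pax7*. *Gm37795* lies between *Zfp991* and *Eno1*. Whether the position of the parents or of the members bears on the levels was not tested.

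**Figure D3:**
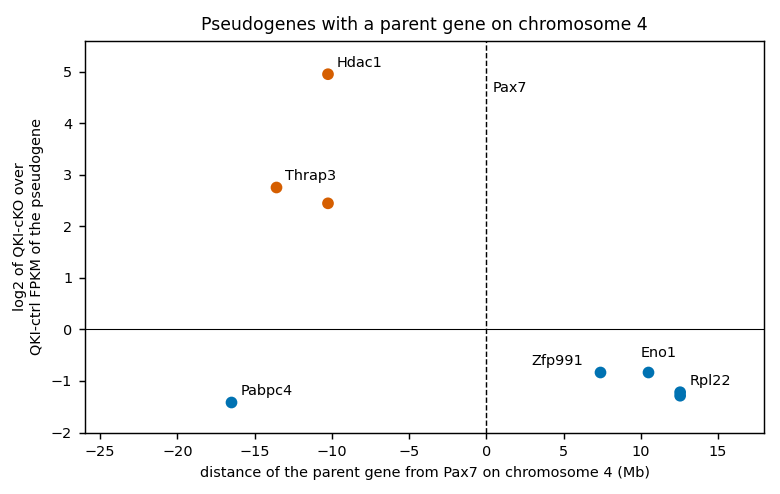
Distance of the parent gene from *Pax7* on chromosome 4 in Mb (horizontal) and log2 of the ratio of QKI-cKO to QKI-ctrl FPKM of its pseudogene (vertical), 1 point per pseudogene, named by the parent, for 8 pseudogenes of 6 parents. The pseudogenes of *Hdac1* and *Thrap3* are higher in QKI-cKO and those of the other 4 parents are lower.

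All 7 copies of mitochondrial genes were lower in QKI-cKO, with ratios from 0.154 to 0.656 and a median of 0.453. Some of them lie side by side, so they are not 7 separate observations. The mitochondrial genome encodes subunits of the respiratory chain and of ATP synthase, and its nuclear copies are not known to make these proteins. *Gm13341*, a copy of *mt-Co2* at 95.9% identity, was the most abundant with 19.4 FPKM in QKI-ctrl against 7.60 FPKM in QKI-cKO, a ratio of 0.392. Its neighbour *Gm13340*, a copy of *mt-Co1* at 97.6% identity, had 7.26 and 3.91 FPKM. They lie 141 bases apart in an intron of *Myo3a* on chromosome 2, on the strand opposite to it, and share 1 locus in the table, so they are not separate observations. *Gm11410*, a copy of *mt-Cytb*, had the lowest ratio of any pseudogene with a level above 0 in both groups, from 0.480 FPKM in QKI-ctrl to 0.0741 FPKM in QKI-cKO. *Gm4076*, a copy of *mt-Nd5*, had 1.13 and 0.475 FPKM. Neither of the last copies had a 100-base stretch in another annotated transcript.

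A further 3 copies lie side by side on chromosome 1, so they are not separate observations either. They match the mitochondrial genome without a single difference. *Gm28439* (*mt-Nd4*) had 2.06 FPKM in QKI-ctrl against 0.935 FPKM in QKI-cKO. *Gm28437* (*mt-Co3*), 779 bases away from it, had 6.08 and 3.99 FPKM. *Gm10925* (*mt-Atp6*), 3 bases farther on, had 7.59 and 3.90 FPKM. Their ratios were 0.453, 0.656 and 0.515. Since each is 100% identical to its parent, as are the first 60 bases of *Gm10925* at chr1:24614592-24614651 (minus strand), no sequence can tell its reads from mitochondrial ones.
Gm10925 and mt-Atp6: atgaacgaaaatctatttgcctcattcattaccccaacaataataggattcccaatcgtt

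Of the 15 mitochondrial genes for proteins and ribosomal RNAs, 3 were in the table, and these were lower in QKI-cKO as well. *mt-Nd1*, a subunit of complex I, had 4135 FPKM in QKI-ctrl against 3209 FPKM in QKI-cKO, a ratio of 0.776. *mt-Rnr2*, the large ribosomal RNA of mitochondria, had 343 and 267 FPKM, a ratio of 0.777. *mt-Co2*, a subunit of complex IV and the parent of *Gm13341*, had 13.7 and 9.08 FPKM, a ratio of 0.664. The listed level of *mt-Co2* was thus below that of its copy in QKI-ctrl and above it in QKI-cKO. It was also far below that of *mt-Nd1* in both groups. How reads were divided between *mt-Co2* and *Gm13341* was not tested, so the ratio of *mt-Co2* is uncertain. The direction of the copies was the same as that of these mitochondrial genes. Each of the 7 copies had a lower ratio than all 3 of them, with *Gm28437* (0.656) just below *mt-Co2* (0.664).

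Copies of genes for ribosomal proteins and elongation factors, the machinery of protein synthesis, were lower in 13 of 13 cases. Their ratios had a median of 0.637 and a narrow range from 0.410 to 0.722. The highest level was that of *Gm11942*, a copy of *Rplp1*, with 17.7 FPKM in QKI-ctrl against 11.0 FPKM in QKI-cKO. The lowest ratios were those of both copies of *Rpl22*. *Gm9457* had 3.77 and 1.55 FPKM, and *Rpl22-ps1* had 5.28 and 2.27 FPKM. *Eef2-ps2*, a copy of the elongation factor gene *Eef2*, had 2.93 and 1.92 FPKM. The parents of these 13 copies were not in the table. Of 76 annotated ribosomal protein genes, 1 was listed, *Rps2*, and it was higher in QKI-cKO with 2185 and 2725 FPKM.

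Copies of the same parent had similar ratios, with the exception of those of *Hdac1*. The *Eef1a1* copies *Gm7105*, *Gm6192* and *Gm6789* had ratios of 0.637, 0.664 and 0.687, and the *Rpl22* copies had 0.410 and 0.430. The copies of *Hspa8*, a gene for a constitutive heat shock protein, were *Gm8326* and *Gm8337*, with 0.545 and 0.555. Between these copies, identity ranged from 87.6% for *Rpl22* to 94.5% for *Gm6192* and *Gm7105*. The *Rpl22* copies have no 100-base stretch in common with another annotated transcript.

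Of the 15 other pseudogenes, 12 were lower in QKI-cKO. Their parents include genes of glycolysis, among them *Gapdh* (*Gm13292*, 1.71 FPKM in QKI-ctrl against 0.927 FPKM in QKI-cKO), *Eno1* (*Gm8483*, 1.60 and 0.907 FPKM) and *Pkm* (*Gm6560*, 6.46 and 3.96 FPKM). Others were below 1 FPKM in each group. *Hnrnpa1l2-ps*, a copy of *Hnrnpa1*, a gene for an RNA-binding protein, had 0.596 and 0.192 FPKM, a ratio of 0.321. *Gm11841*, a copy of *Pabpc4*, had 0.266 and 0.1004 FPKM, a ratio of 0.377. *Cbx3-ps8*, a copy of the heterochromatin protein gene *Cbx3*, had 0.180 FPKM in QKI-ctrl and was listed at 0 in QKI-cKO. *Gm15207*, a copy of *Hnrnpd* at 88.3% identity, had 0.171 FPKM and was likewise listed at 0 in QKI-cKO. With levels this low and no counts, no ratio was computed for them. *Tpt1-ps5*, a copy of the translationally controlled tumour protein gene *Tpt1*, had 6.30 and 3.74 FPKM, and *Gm5529*, a copy of the adenine nucleotide carrier gene *Slc25a5*, had 2.23 and 1.29 FPKM.

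*Znf41-ps* was the only pseudogene apart from *Gm13341* whose parent was in the table. It had 0.547 FPKM in QKI-ctrl against 0.308 FPKM in QKI-cKO, a ratio of 0.563. It is 99.5% identical to the zinc finger gene *Zfp991*, which had 0.827 and 0.350 FPKM, a ratio of 0.423. It is nearly as close to *Zfp992*, at 99.3%, and *Zfp992* went the other way, with 0.0533 FPKM in QKI-ctrl against 0.352 FPKM in QKI-cKO, a ratio of 6.60. All 3 are below 1 FPKM, and 77.3% of the 100-base stretches of *Znf41-ps* occurred in another transcript, so the division of reads among these genes is uncertain.

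**Figure D4:**
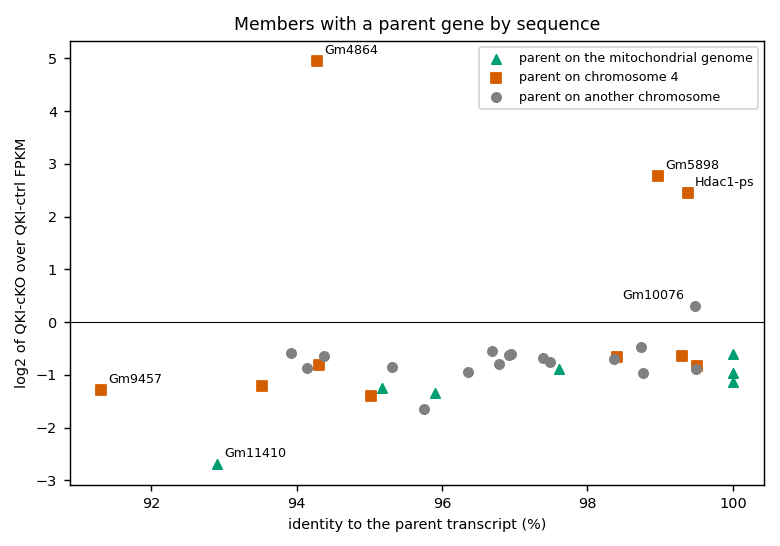
Identity of each member to its parent transcript in percent (horizontal) and log2 of the ratio of QKI-cKO to QKI-ctrl FPKM (vertical), for the 34 members with a parent and a level above 0 in both groups. Lower members are found over the whole range of identity, and the 4 points above 0 are *Gm4864*, *Gm5898*, *Hdac1-ps* and *Gm10076*.

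Lower levels were found on both sides of a limit of 98% identity to the parent. This split does not show what part shared reads had in the levels, which was not tested. Of the 12 pseudogenes with at least 98% identity and a level above 0 in both groups, 10 were lower, with a median ratio over the 12 of 0.623. Of the 21 with less identity, 20 were lower, with a median of 0.555.

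The most abundant member, *Gm10076*, behaved unlike the pseudogenes. The annotation lists it as a lincRNA of 384 bases on chromosome 14, but 383 of its bases align to *Rpl41*, a ribosomal protein gene, with 99.5% identity. It had 1217 FPKM in QKI-ctrl against 1508 FPKM in QKI-cKO, a ratio of 1.24, close to that of *Rps2* (1.25). Despite this identity, only 29.5% of its 100-base stretches occur unaltered in another annotated transcript. The second most abundant member, *CT010467.1* on chromosome 17, is the only ribosomal RNA gene. It had 1002 FPKM in QKI-ctrl against 742 FPKM in QKI-cKO, a ratio of 0.741. Ribosomal RNA mostly lacks a poly(A) tail and is removed by the selection for polyadenylated RNA, and no value per library was available to show whether its level varied among libraries. Its exons overlap those of *Gm42418* on the opposite strand over 1822 bases and those of *AY036118* on the same strand over 923 bases. The strand setting of the authors' counting is not given in the sources used here.

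Of the 23 long noncoding genes, 12 were below 1 FPKM in both groups, and large ratios were found among low levels. *1700108F19Rik*, on chromosome 14, had 0.0415 FPKM in QKI-ctrl against 1.10 FPKM in QKI-cKO, a ratio of 26.4, and was the only gene with a ratio above 3 in this class that reached 1 FPKM. *Gm47015*, on chromosome 10, had 0.0190 and 0.324 FPKM, a ratio of 17.0. *BC030343*, which lies 53 bases from *Zfp316* on the opposite strand, had 0.0771 and 0.286 FPKM. *Gm7607*, on chromosome 9, was listed at 0 in QKI-ctrl and had 0.181 FPKM in QKI-cKO. In the other direction, *Gm26671* had 0.865 FPKM in QKI-ctrl against 0.0924 FPKM in QKI-cKO, a ratio of 0.107 and the lowest of all members. *AV099323*, 43 bases from *Pcna* on the opposite strand, had 0.828 and 0.383 FPKM, a ratio of 0.462. *Pcna*, the sliding clamp of DNA replication, was not in the table.

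Among the more abundant long noncoding genes the differences were smaller. *AI480526*, between *Rhof* and *Setd1b* on chromosome 5, had 6.28 FPKM in QKI-ctrl against 10.3 FPKM in QKI-cKO, a ratio of 1.65. Its exons overlap those of 2 lincRNA genes on the opposite strand. *Gm43305* had 5.32 and 9.33 FPKM, a ratio of 1.75, and *4930471E19Rik* had 1.45 and 2.86 FPKM, a ratio of 1.97. All 4 genes of the annotation's class TEC, loci that await experimental support, were higher in QKI-cKO, as were all 3 of the class processed transcript. Of 5 noncoding nuclear genes with ordinary names that the symbol rule leaves out, pseudogenes aside, 4 were higher in QKI-cKO and 1 was lower. *Bc1* had 104 and 309 FPKM, *Neat1*, the scaffold RNA of paraspeckles, had 25.7 and 46.2 FPKM, and *Peg13* and *Rpph1* had ratios of 1.53 and 1.28. *Snhg5*, a host of small nucleolar RNAs, was lower with 121 and 92.7 FPKM.

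Several of the long noncoding genes are hosts or neighbours of microRNA genes. MicroRNAs are cut from hairpins in longer precursors and silence messenger RNAs that pair with their seed, bases 2 to 8. Of the 65 members, 8 overlapped an annotated microRNA gene (12.3%, compared with 6.91% of the other genes of the table), 6 of them higher and 2 lower in QKI-cKO. Among long noncoding members the share was 6 of 23 (26.1%), compared with 1.53% of 13374 annotated long noncoding genes. The annotated genes were not limited to those expressed in MuSCs, so these shares are of unlike sets. For the members, an overlap of any length and on either strand was counted. The libraries measured polyadenylated precursors and not mature microRNAs, so these levels are not microRNA levels.

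MicroRNAs within or beside these genes are shown with the seed in capitals, 1 mature arm each, to identify the loci. The mature sequences are those of RefSeq on GRCm38.p6. miR-206 and miR-133b are muscle microRNAs, miR-34a is a target of p53, and miR-24 and its neighbours miR-27a and miR-23a come from 1 cluster. The seeds of the 11 arms shown differ from each other. miR-301b, from the same host as miR-130b, is not among them, and its 3p arm is known to share the seed of miR-130b-3p.
miR-206-3p: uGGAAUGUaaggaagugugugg
miR-133b-3p: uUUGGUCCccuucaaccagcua
miR-34a-5p: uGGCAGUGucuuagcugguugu
miR-24-3p: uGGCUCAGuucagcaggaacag
miR-27a-3p: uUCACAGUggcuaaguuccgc
miR-23a-3p: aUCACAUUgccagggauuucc
miR-191-5p: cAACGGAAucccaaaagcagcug
miR-425-5p: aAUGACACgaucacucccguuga
miR-130b-3p: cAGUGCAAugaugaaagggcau
miR-31-5p: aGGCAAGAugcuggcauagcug
miR-147-5p: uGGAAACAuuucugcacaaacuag

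*Gm28653*, a lincRNA on chromosome 1 that contains *Mir206* and *Mir133b*, had 1.42 FPKM in QKI-ctrl against 2.10 FPKM in QKI-cKO, a ratio of 1.48. *Gm37795*, on chromosome 4, starts within the last 17 bases of *Mir34a* and downstream of both of its mature sequences, and had 4.13 and 6.90 FPKM, a ratio of 1.67. *Gm26532*, on chromosome 8, overlaps the last 2 bases of *Mir24-2* and follows *Mir27a* at 162 bases and *Mir23a* at 328 bases. It had 12.7 and 17.9 FPKM, a ratio of 1.41. *Gm37352*, another member 5871 bases away on the same strand, had 3.36 and 4.63 FPKM, a ratio of 1.38. Both genes beside the *Mir23a* cluster were therefore higher in QKI-cKO by a similar factor.

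*4833445I07Rik*, which contains *Mir191* and *Mir425* on chromosome 9, had 0.241 FPKM in QKI-ctrl against 0.684 FPKM in QKI-cKO, a ratio of 2.84, the largest among the microRNA hosts. Protein-coding members also carried microRNA genes. *2610318N02Rik*, with *Mir130b* and *Mir301b*, had 1.54 and 2.66 FPKM, a ratio of 1.73, and *AA467197*, with *Mir147*, had 13.1 and 17.9 FPKM, a ratio of 1.37. *Gm49890*, the host of *Mir31*, was lower, with 8.40 and 6.11 FPKM, a ratio of 0.728. The second lower one was *Gm26671*, which has *Mir6377* on its opposite strand and is therefore not its precursor.

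The 4 protein-coding members without a microRNA gene were likewise split. *AC149090.1*, on a scaffold that is not placed on a chromosome, was the most abundant with 37.7 FPKM in QKI-ctrl against 24.1 FPKM in QKI-cKO, a ratio of 0.639. *AA986860* had 0.670 and 0.268 FPKM. *D930048N14Rik*, 112 bases from *N4bp3* on the opposite strand, had 0.707 and 1.16 FPKM, and *Gm12258* had 0.383 and 0.833 FPKM.

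Within 10 kb of another gene of the table were 7 members, in each case next to another member, namely the 3 mitochondrial copies on chromosome 1, the pair on chromosome 2, and *Gm26532* with *Gm37352*. No member overlapped a gene of the table. Within 100 kb there were 12, and the 5 added members did not share the direction of their neighbour in each case. *Gm37795* and *H6pd* at 59516 bases were both higher, as were *Gm7607* and *Fut4* at 83221 bases, and *Eef2-ps2* and *Pdpn* at 24063 bases were both lower. The pairs of *Gm37795* and *Eef2-ps2* lie on chromosome 4, which also carries the Cre allele at *Pax7*. Whether this bears on their levels was not tested. *Gm5529* and *Hnrnpa1l2-ps* were lower whereas their neighbours *Serpine2* and *Cast* were higher. How often the other genes of the table overlap or lie this close to one another is not given here. These counts therefore do not show that nearness or lack of overlap is particular to the members.

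QKI binds RNA at the letters ACTAAC or ACTAAT, together with a second shorter site. In the longest annotated transcript of each of the 23 long noncoding members, on the transcript's own strand, 10 held at least 1 of these letter runs (43.5%). Annotated long noncoding transcripts of similar length, within 20% of each member, held one in 38.6% on average, so the share was near the background. It was 9 of 18 among the higher genes, with 39.5% on average in transcripts of similar length. Among the lower genes it was 1 of 5, with 35.4% in transcripts of similar length. These counts are too small to compare the directions. A letter run is not evidence of binding, and its absence from an annotated transcript says nothing about QKI.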

How the data were processed

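Groups of 3 MuSC libraries follow the labelled genotype. Upstream, the authors used Trimmomatic for trimming, STAR for alignment to GRCm38 (mm10) and Cufflinks for the comparison. The deposited table gives the authors' FPKM, 1 pooled value per gene and group, and their fold changes, test statistics, p-values and q-values, which were not used. It contains 0 columns of single samples. Ratios were computed without a pseudocount, and genes listed at 0 in a group received no ratio. All 398 gene IDs matched GENCODE vM21 (GRCm38), whose coordinates are printed, and 64 of the 65 members had a transcript sequence. For 7 members the annotation has another symbol, and the table's symbol is used.

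Parents were found with BLAST+ 2.17.0 (plus strand, e-value limit 1e-10) among protein-coding and mitochondrial transcripts. Tested on simulated data, 200 of 200 transcripts with 5% of bases changed were matched back to their gene. Only substitutions in whole transcripts were simulated. The check therefore does not cover copies with gaps, partial copies or identities down to 88.3%. Python 3.11.15 and pandas 2.3.3 were used.

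Of the members, 2 are included in the counts but are not reported here singly. Members and lists were chosen with earlier results of these data known. All members are accounted for by class. Apart from those 2, values are given for the 5 largest ratios in each direction, genes listed at 0, the 5 highest levels, members that share a locus, lie within 10 kb of a table gene or overlap a microRNA, and members whose parent is in the table, with examples of each class. Alternatives were pseudocounts, other limits on level, fold, identity and distance, and counts without some members.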

Additional observations from a re-analysis of the deposited data

How the results depend on the processing

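The number of members higher in QKI-cKO was 16 in place of 25 when at least 1 FPKM was required in the higher group, and the number lower was 28 in place of 40. Without protein-coding members, with a shared locus counted once, and without copies of mitochondrial genes, the last chosen after the data were seen, 21, 25 and 25 were higher and 38, 39 and 33 were lower. The shared locus is that of the pair of mitochondrial copies on chromosome 2. The mitochondrial copies side by side on chromosome 1 were still counted singly there. Of the 26 members past a 2-fold difference, 20 were past it with 0.1 FPKM added to both groups, 5 with 1 FPKM added, and 9 when 1 FPKM had to be reached, while 56 were past a limit of 1.5. Among these alternatives, the share over the whole table is given here only where 1 FPKM had to be reached. The other counts therefore cannot be set against the rest of the table. The median log2 ratio was -0.61, and -0.60 and -0.37 with 0.1 and 1 FPKM added. With these additions, 6 and 21 of the 62 single ratios, on the linear scale, moved by a factor over 1.5. Such an addition cannot change a direction. A parent was found for 36 members, and for 35 with at least 90% identity or 80% of the member aligned. There were 7 members within 10 kb of another table gene, 0 overlapping one and 12 within 100 kb. The distances from *Pax7* were chosen after the data were seen. No paired analysis was possible because the table holds no value per replicate, and for the same reason no replicate could be left out. The depth of the libraries is not known from the table, so no counting error can be given for genes below 1 FPKM.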
